A study of Mus musculus with 4 samples.

Results

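Leukocytes from the hindpaws of 21-week-WT mice were compared with those of 12-week-WT mice within 5 lineages. Cells were assigned by the unique molecular identifiers (UMIs, 1 per captured transcript) of defining genes. Macrophages held at least 10 UMIs of the complement genes C1qa, C1qb and C1qc together. Dendritic cells held at least 10 of the MHC class II gene H2-Aa, under 5 of the C1q genes and none of Cd79a. T cells held Cd3e and under 5 C1q UMIs, and type 2 innate lymphoid cells (ILC2) held at least 2 UMIs of Gata3, none of Cd3e and under 5 C1q UMIs. Mast cells gave at least 1% of their UMIs to the protease genes Cpa3, Cma1, Mcpt4 and Tpsb2. These rules found 9929 cells among 12541 kept cells of both WT libraries and 27800 of all 4 libraries.

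Male mice on the C57BLKS/J background were perfused, both hindpaws were digested with collagenase, and CD45+ cells were sorted and profiled with the 10x 3′ v3 protocol. WT animals were Lepr WT/WT and DB animals Lepr db/db, without functional leptin receptor. At each age, 12 and 21 weeks, each genotype was 1 library made from 2 to 3 pooled mice. With a single library per group, differences between ages have no replicate check and were not tested. All intervals are exact 95% intervals, which cover counting error only.

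Skin and joints of the limb hold resident macrophages that clear debris, dendritic cells that carry antigen to lymph nodes, and mast cells that release stored mediators. ILC2 and the gamma-delta T cells of skin are lymphocytes that respond quickly to tissue signals. Among the signals these cells exchange, interleukin-1 beta and some CXC chemokines, such as Cxcl1 and Cxcl2, call in neutrophils. The transcription factor NF-kB drives many of the genes concerned.

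After removal of barcodes under 200 genes or over 10% mitochondrial UMIs, 5271 cells of 12-week-WT held 46435961 UMIs and 7270 cells of 21-week-WT held 67723605. The WT libraries shared 6 barcodes. The sources disagree on the software: file headers name Cell Ranger 5.0.0 for the 12-week libraries and 6.0.0 for the 21-week libraries, the labels 5.0.0 for all 4, and the study's methods a single version, 6.0. If the headers are right, age and software version cannot be told apart in any value below. Markers that the assignment did not use had their highest sums in the lineage they mark. The 6 macrophage markers summed to 7099 CPM (UMIs scaled to a common total for the lineage) at 12 weeks and 5572 at 21 weeks in macrophages. The other lineages had 133 to 1729. T cells, whose rule sets no limit on H2-Aa, held 4882 and 4806 CPM of the 7 dendritic cell markers. Their own 6 markers summed to 2517.9 and 2158.5 CPM. In dendritic cells most of the 27027 CPM of dendritic markers at 12 weeks was Cd74 (19045) and H2-Ab1 (7202), MHC class II genes like H2-Aa. Single markers could be higher elsewhere, as Il1rl1 was in mast cells (1591 and 1223 CPM) against ILC2 (304 and 345). ILC2 markers were less exclusive, at 3919 and 5293 CPM in ILC2, 1896 and 2034 in T cells, and 2191 and 2330 in mast cells.

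The makeup of the sorted leukocytes differed between the ages. Macrophages were 31.6% of kept cells at 12 weeks (1663 cells, interval 30.3 to 32.8%) and 21.9% at 21 weeks (1589 cells, 20.9 to 22.8%). Dendritic cells were 18.8% (992 cells, 17.8 to 19.9%) and 23.6% (1719 cells, 22.7 to 24.6%). T cells were 15.7% (829 cells, 14.8 to 16.7%) and 23.6% (1717 cells, 22.6 to 24.6%). Macrophages and mast cells thus made up less of the sort at 21 weeks, and dendritic and T cells more. Mast cells were 6.56% (346 cells, 5.91 to 7.27%) and 3.14% (228 cells, 2.75 to 3.56%). ILC2 were 8.37% (441 cells, 7.63 to 9.15%) and 9.31% (677 cells, 8.65 to 10.0%), and these intervals overlapped. With a limit of 5% mitochondrial UMIs the order for ILC2 turned, at 5.97% and 5.48%. The assignment uses UMI counts, and the median kept cell had 7390 UMIs at 12 weeks and 8000.5 at 21 weeks, a difference whose part in the shares was not tested.

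**Figure D1:**
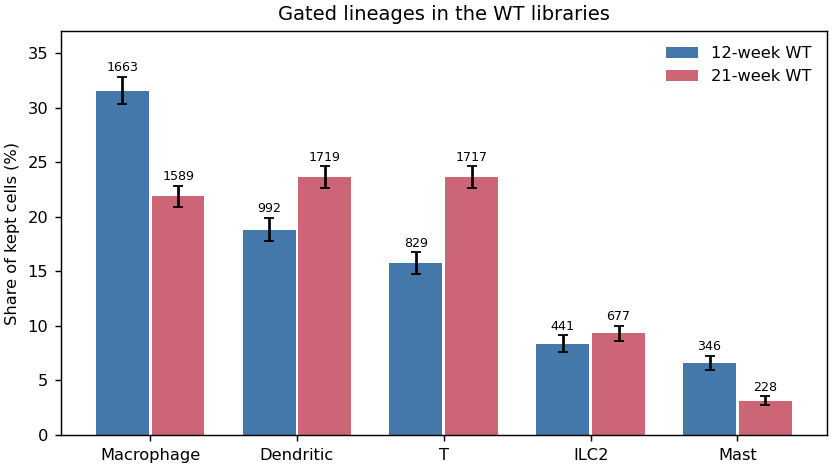
Share of kept cells (%) in each lineage for 12-week WT (blue) and 21-week WT (red). Bars start at 0, error bars are exact 95% intervals for counting error, and the numbers above the bars are cells. Macrophages are 31.6% of kept cells at 12 weeks and 21.9% at 21 weeks, mast cells 6.56% and 3.14%, and dendritic and T cells are both 23.6% at 21 weeks.

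Most genes were close to equal at the 2 ages. Genes counted as higher or lower differed at least 2-fold in CPM. They had to reach 100 CPM at one of the ages and 50 UMIs over both, and the 11 genes used for assignment were left out. In macrophages 13 of 1721 genes were higher at 21 weeks (0.755%) and 16 lower (0.93%). In dendritic cells 7 of 1494 were higher (0.469%) and 19 lower (1.27%). In T cells 3 of 1584 were higher (0.189%) and 20 lower (1.26%), and in ILC2 8 of 1554 were higher (0.515%) and 18 lower (1.16%). Mast cells, the smallest and shallowest lineage, had 45 of 1824 genes higher (2.47%) and 72 lower (3.95%). Between 87.7% and 91.5% of the genes differed by less than 0.5 on the log2 scale in the 4 larger lineages, and 65.8% in mast cells. The median log2 ratio of all genes was -0.11 in macrophages, -0.10 in dendritic cells, -0.06 in T cells, -0.06 in ILC2 and -0.07 in mast cells. Scaling by TMM factors moved these medians to between 0.08 and 0.16, and the higher and lower genes then numbered 19 and 8 in macrophages, 15 and 13 in dendritic cells, 5 and 7 in T cells, 12 and 15 in ILC2, and 83 and 34 in mast cells. The balance of higher and lower genes thus depends on the scaling.

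**Figure D2:**
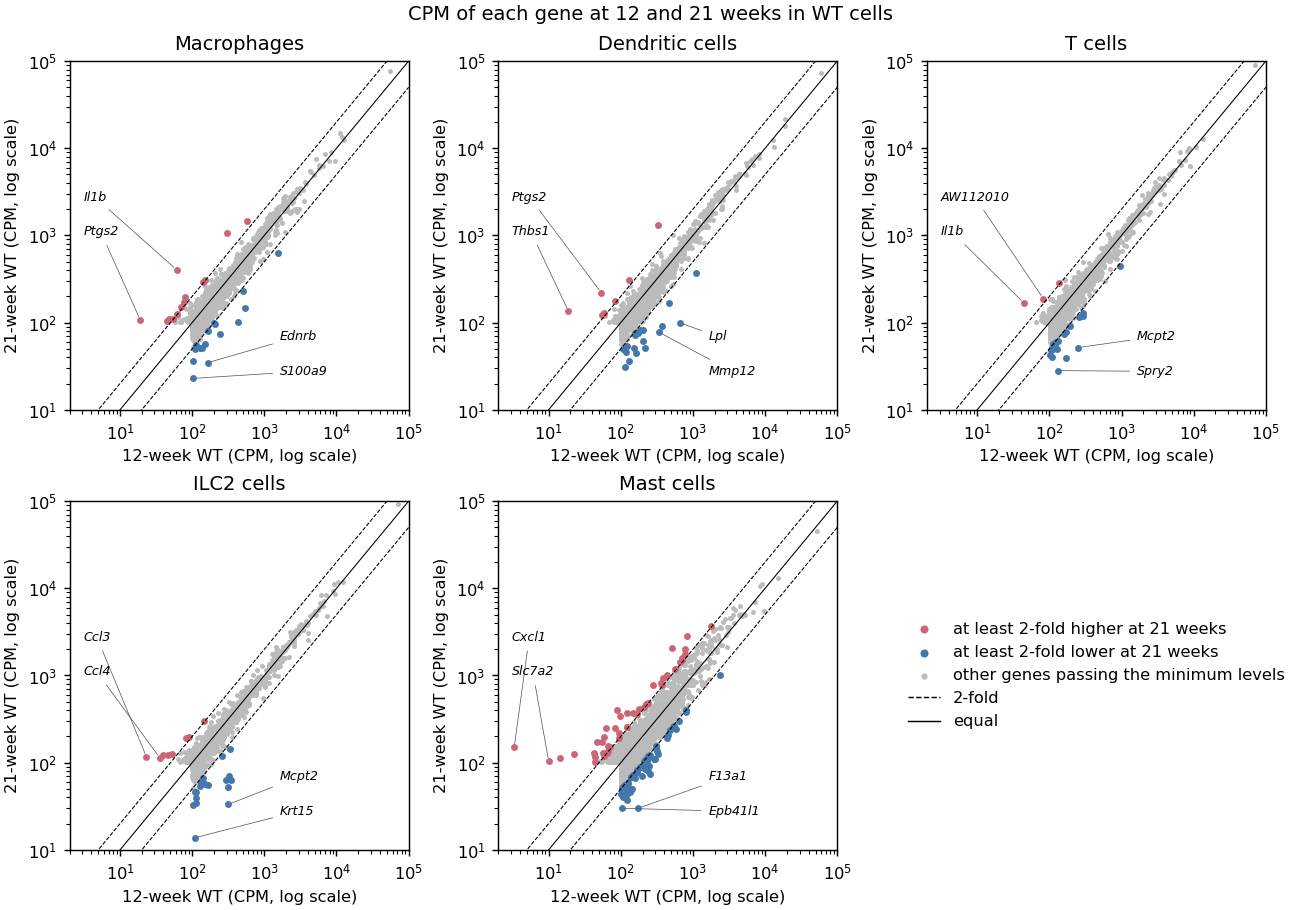
CPM of each gene passing the minimum levels at 12 weeks (x axis) and 21 weeks (y axis) in WT cells, both on log scales, 1 panel per lineage. Solid lines mark equal levels and dashed lines a 2-fold difference, red and blue points are genes at least 2-fold higher or lower at 21 weeks, and the names are the 2 largest differences each way. In macrophages 13 points are red and 16 blue, and in mast cells 45 and 72.

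Genes at least 2-fold higher in 4 or more of the 5 lineages numbered 3 of the 1108 genes that could be counted so (0.271%), and none was lower in as many (0%). By the main scaling they were Il1b, which encodes interleukin-1 beta, and the ribosomal gene copies Gm10260 and Gm10076. Of these, Gm10260 alone passed in 4 or more lineages without the cells of highest doublet score. Without cells that met more than 1 lineage rule Gm10076 alone did, with Gm10260 in 3 lineages and Il1b in 2. With each cell weighted the same none did. At a lower bar, 884 genes passed the minimum levels in all 5 lineages, of which 198 had a ratio above 0 and 234 a ratio below 0 in every lineage. Of the 198, 115 were also above 0 in all 5 lineages of DB mice, and 165 of the 234 were below 0. The share of all 884 genes with the same sign in all 5 DB lineages was not counted, so these overlaps have no base rate. The sign of a small ratio also depends on the scaling, since TMM moved the median of every lineage above 0. How many of the 198 were ribosomal protein genes was not counted. The WT and DB comparisons share no library, but the file headers name the same difference in software for both.

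Il1b was higher at 21 weeks in the sum of every lineage. In macrophages it stood at 60.8 CPM in the younger library and 404 CPM in the older, a log2 ratio of 2.73 (2.64 to 2.83). In dendritic cells, its highest level, it stood at 330 and 1312 CPM (1.99, 1.94 to 2.04). T cells had 43.8 and 169 CPM (1.95, 1.77 to 2.14), ILC2 40.0 and 124 CPM (1.63, 1.36 to 1.91), under 10% of the level in dendritic cells (with such a limit Il1b counted in 4 lineages), and mast cells 62.1 and 252 CPM (2.02, 1.57 to 2.49). In DB mice the log2 ratio was 3.23 in macrophages, 2.61 in dendritic cells and 1.89 in mast cells, but 0.21 in T cells and 0.44 in ILC2.

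Few cells carried most Il1b transcripts. In dendritic cells 92 of 992 cells held at least 10 Il1b UMIs at 12 weeks (9.27%) and 404 of 1719 at 21 weeks (23.5%), with 86.2% and 97.1% of all Il1b UMIs. Without them the remaining dendritic cells had 51.2 CPM at 12 weeks and 52.1 CPM at 21 weeks. The remaining cells were chosen by their own Il1b UMIs, so their levels say nothing on whether Il1b differed among them. Macrophages showed 20 such cells of 1663 and 116 of 1589, and 106 of those 116 also held at least 10 UMIs of H2-Aa, with a median of 117 against 5 in the other macrophages. The remaining macrophages had 18.9 and 32.3 CPM. In T cells 37 of 1717 cells held 87.6% of the Il1b UMIs at 21 weeks, and 33 of these 37 held at least 10 UMIs of H2-Aa, a median of 172 against 1 in the other T cells. The remaining T cells had 11.1 and 22.2 CPM. Of these 37 cells, 51.4% were among the cells with the highest doublet scores, as were 66.7% of the 9 such ILC2. In mast cells 2 cells of 346 and 2 of 228 held 75.0% and 81.1% of the Il1b UMIs, the rest had 15.7 and 49.4 CPM, and the log2 ratio was -0.76 without cells that met more than 1 lineage rule and -0.10 without the cells with the highest doublet scores. The share of cells with at least 1 Il1b UMI, after thinning every cell to 1000 UMIs, was 2.65% and 9.31% in macrophages (11.7% and 27.6% before thinning), 12.6% and 26.2% in dendritic cells (31.0% and 45.7%), and 1.94% and 4.49% in T cells (7.24% and 15.5%). T cells are not a usual source of Il1b, so their share serves as a background, and it too was higher at 21 weeks. The median macrophage had 9248 and 11029 UMIs, the median dendritic cell 12316.5 and 12759, and the median T cell 6273 and 6928. Thinning left out no more than 3 cells of any of these groups.

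Gm10260 lies on the minus strand of chromosome 13 (GRCm38, chr13:97760072-97760632) and is annotated as protein-coding. Its transcript was 99.1% identical to that of Rps18, which encodes a protein of the small ribosomal subunit, over 545 bases with 5 mismatches. Gm10076 (GRCm38, chr14:105681828-105682211, plus strand, annotated as a lincRNA) was 99.5% identical to Rpl41, of the large subunit, over 383 bases with 2 mismatches. A stretch of coding sequence is shown for Rps18 and Gm10260 to show how few bases separate the genes, read from GENCODE transcripts on GRCm38 with the only base that differs in capitals. The substitution is T243C, counted from 1 at the 5′ end of the Rps18 transcript, with the Rps18 base first.
Rps18: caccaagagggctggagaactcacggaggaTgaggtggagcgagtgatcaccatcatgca
Gm10260: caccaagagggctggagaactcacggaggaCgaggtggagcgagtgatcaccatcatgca

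With so few differences, reads may not be divided between these copies and their parent genes with confidence, so their values are uncertain. How the reads were divided was not tested. Over the 5 lineages Gm10260 ranged from 42.2 to 148 CPM in the 12-week library and from 129 to 312 CPM in the 21-week library, and its log2 ratio lay between 1.02 and 1.61. Rps18 itself had log2 ratios of 0.14 in macrophages, 0.09 in dendritic cells, -0.10 in T cells, -0.15 in ILC2 and 0.55 in mast cells. Relative to Rps18, Gm10260 UMIs were 9.0% to 10.0% in the 5 lineages at 12 weeks and 20.2% to 21% at 21 weeks. The ratio was thus nearly the same in all 5 cell types of 1 library and differed between libraries. In DB mice it was 8.04% to 9.57% at 12 weeks and 12.1% to 12.9% at 21 weeks. Relative to Rpl41, Gm10076 UMIs were 1.77% to 2.32% at 12 weeks and 3.45% to 3.59% at 21 weeks in WT mice, and 1.95% to 2.07% and 2.89% to 3.12% in DB mice.

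**Figure D3:**
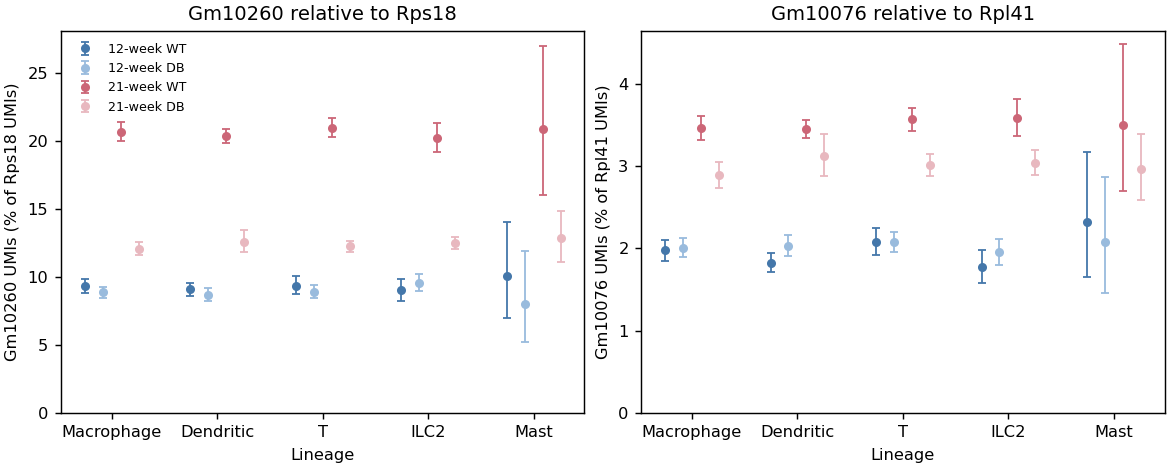
UMIs of Gm10260 as a percent of Rps18 UMIs (left) and of Gm10076 as a percent of Rpl41 UMIs (right) in the 5 lineages of the 4 libraries. Points are libraries, axes start at 0 and bars are exact 95% intervals for counting error. All 5 lineages of 21-week WT sit between 20.2% and 21% in the left panel and all 5 of 12-week WT between 9.0% and 10.0%.

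Transcripts of cytosolic ribosomal proteins, a list chosen after its values were seen, mostly had ratios above 0, but few reached 2-fold. Of 82 genes, 78 passed the minimum levels in each lineage, and their ratio was above 0 for 77 in macrophages, 78 in dendritic cells, 72 in T cells, 69 in ILC2 and 77 in mast cells. Their median log2 ratio was 0.31, 0.33, 0.19, 0.14 and 0.76 in the same order, and 2-fold was passed upward by 6 genes in mast cells and by 0 in each of the other lineages. Of all genes 2.47% were at least 2-fold higher in mast cells and 0.189% to 0.755% in the other lineages. The count of 0 there is thus near the share of all genes. They took 10.9% of macrophage UMIs at 12 weeks and 13.3% at 21 weeks, and 6.88% and 11.2% of mast cell UMIs. The 12 mitochondrially encoded genes that passed had medians between -0.0043 and 0.13.

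In macrophages 4 of the 5 largest ratios belonged to Il1b, Ptgs2, Slc7a2 and Cxcl2. Ptgs2, the inducible cyclooxygenase of prostaglandin synthesis, stood at 19.0 CPM at 12 weeks and 108 CPM at 21 weeks (log2 ratio 2.50, 2.34 to 2.67). Slc7a2, a transporter of arginine, stood at 301 and 1070 CPM (1.83, 1.79 to 1.88), and in DB mice at 305 and 333 CPM. Cxcl2, a neutrophil chemokine, stood at 573 and 1459 CPM (1.35, 1.32 to 1.38), and in DB mice its log2 ratio was 2.82. Cells with at least 10 Cxcl2 UMIs numbered 175 at 12 weeks and 301 at 21 weeks, and cells with as many Ptgs2 UMIs 5 and 53. Cxcl1, a related chemokine, had a log2 ratio of 1.07, and Clec4e, a receptor for microbial glycolipids, 1.18. Tnfaip3, which encodes the NF-kB inhibitor A20, stood at 142 and 293 CPM (1.05), and Socs3, an inhibitor of cytokine receptor signalling, stood at 70.6 and 151 CPM (1.10). Cxcl1 and Clec4e were named after their values were seen.

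Of the 20 NF-kB feedback and target genes, 10 passed the minimum levels in macrophages, all 10 had ratios above 0, and the median was 0.60 against -0.11 for all genes. Tnfaip3 was the only one past 2-fold. Cd83, a surface marker of activation, stood at 244 and 409 CPM (0.75), and Bcl3, an atypical NF-kB inhibitor, at 15.3 and 26.7 CPM, below the minimum level. The DB median was 1.24, without a DB median of all genes beside it. Of 26 inflammatory cytokines and chemokines 15 passed in macrophages, with 4 at least 2-fold higher and 2 lower, where 0.755% and 0.93% of all genes were. In dendritic cells 2 of 11 were higher and 1 lower (0.469% and 1.27% of all genes). In T cells 1 of 4 was higher and 0 lower (0.189% and 1.26%). In ILC2 4 of 6 were higher and 1 lower (0.515% and 1.16%). In mast cells 5 of 9 were higher and 0 lower (2.47% and 3.95%). A gene passes when either library reaches 100 CPM, so it can enter these small counts through its higher library alone. Among those that did so were Il1b and Ptgs2 in macrophages, Ptgs2 in dendritic cells and Il1b in T cells. Il1b, Ccl3 and Ccl4 in ILC2, and Il1b and Cxcl1 in mast cells, were others. Without the cells of highest doublet score, Ccl3 and Ccl4 in ILC2 had log2 ratios of 0.97 and 0.94, and Il1b in mast cells -0.10. The share of all genes is not matched for level, so no excess over it is concluded from these counts.

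The starts of Il1b, Cxcl2, Cxcl1 and Tnfaip3 are shown because these are the cytokine, chemokines and NF-kB inhibitor described above. Each is the 150 bases before the RefSeq transcription start (GRCm38.p6), 5′ to 3′ on the gene's strand, with matches to the NF-kB motif (GGG, any 3 bases, then TTCC) in capitals. Both strands were searched, and matches can overlap.
Cxcl2, chr5:90903749-90903898, plus strand: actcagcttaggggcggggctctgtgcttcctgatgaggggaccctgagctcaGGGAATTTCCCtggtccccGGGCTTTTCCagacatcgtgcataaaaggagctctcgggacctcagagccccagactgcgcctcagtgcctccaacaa
Cxcl1, chr5:90891095-90891244, plus strand: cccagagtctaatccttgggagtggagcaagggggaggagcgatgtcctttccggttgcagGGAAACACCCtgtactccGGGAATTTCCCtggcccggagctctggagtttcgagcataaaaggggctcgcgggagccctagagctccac
Tnfaip3, chr10:19015411-19015560, minus strand: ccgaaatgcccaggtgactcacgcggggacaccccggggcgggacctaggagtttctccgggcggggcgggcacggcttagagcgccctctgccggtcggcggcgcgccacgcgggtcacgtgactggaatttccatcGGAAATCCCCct
Il1b, chr2:129371140-129371289, minus strand: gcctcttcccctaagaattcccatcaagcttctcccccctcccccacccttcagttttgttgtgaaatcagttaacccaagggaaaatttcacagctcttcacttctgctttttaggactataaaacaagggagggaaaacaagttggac

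Of 10 genes higher in macrophages that were searched, picked after their values were seen, 3 held this motif in the 250 bases before a start, as 4.65% of 32851 RefSeq promoters did. Cxcl2 and Cxcl1 each held 3 matches, between 97 and 78 bases and between 89 and 70 bases before the start. Tnfaip3 held 1 at 12 bases (1 also lay before its other listed start). The other 7 genes, Il1b, Ptgs2, Clec4e, Socs3, Hspb1, Ccrl2 and Rnase2a, held none. A second motif, the STAT site TTC, any 3 bases, then GAA, was held by 1 of the 10, Socs3, and by 7.02% of all promoters. A match is a description of the sequence, not a measured binding site, and no match says only that these letters are not in the window.

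In macrophages the lowest ratio belonged to Ednrb, the endothelin B receptor, which stood at 164 CPM at 12 weeks and 34.7 CPM at 21 weeks (log2 ratio -2.24, -2.37 to -2.12), and which was lower in DB mice too (-1.05). Ccl8, a chemokine for monocytes and lymphocytes, stood at 432 and 100 CPM (-2.11), and 25.1% of macrophages held a UMI of it at 12 weeks against 7.80% at 21 weeks. In T cells, a background, the shares were 5.55% and 1.40%. Lpl, the lipoprotein lipase that releases fatty acids from circulating fat, stood at 537 and 149 CPM (-1.85), and at 472 and 48.7 CPM in DB mice. Clec10a, a lectin that binds galactose-type sugars, stood at 245 and 73.5 CPM (-1.74) in WT mice but at 181 and 206 CPM in DB mice. Of the 20 tissue residence and alternative activation genes 16 passed, 12 of them below 0 and 3 at least 2-fold lower, where 0.93% of all genes were. The median was -0.52 against -0.11 for all genes. The other 4 were above 0, up to 0.58. Among these, named after their values were seen, were Retnla (33803 and 55711 UMIs before scaling) and Lyve1 (23773 and 32570 UMIs), out of 17695403 and 19485006 macrophage UMIs. The share of macrophages with a UMI was 39.1% and 40.7% for Retnla but 68.8% and 61.8% for Lyve1. Thinned to 1000 UMIs it was 17.3% and 20.9% for Retnla and 47.6% and 46.8% for Lyve1. In the same cells the 6 macrophage markers had a log2 ratio of -0.35 summed, the 5 monocyte markers 0.18 (278 and 315 CPM) and the 7 dendritic cell markers 0.55 (7100 and 10384 CPM). Single markers went both ways. Of the monocyte markers Ly6c2 stood at 4.58 and 29.0 CPM and Plac8 at 6.16 and 22.3 CPM. Only Ccr2, the highest of them, was lower, at 210 and 176 CPM. Of the dendritic cell markers Flt3 stood at 8.36 and 16.6 CPM and Ccr7 at 3.62 and 14.6 CPM, but Cd209a at 52.4 and 26.3 CPM and Itgax at 57.1 and 30.4 CPM. The part of monocytes and dendritic cells in the inflammatory, residence and MHC class II values of macrophages was not tested. Cd209f, a lectin, was at 44.7 and 7.60 CPM, and Arg1, the enzyme arginase, at 26.6 and 68.3 CPM, both below the minimum level. Maf, a transcription factor of macrophages, was named after its values were seen, at 1541 and 621 CPM (-1.31).

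S100a9, a calcium-binding protein of neutrophils, was lower in macrophages, at 102 and 22.9 CPM (-2.16). The 5 neutrophil markers summed to 229 CPM at 12 weeks and 74.4 CPM at 21 weeks in macrophages, and 23 of 1663 cells held 71.8% of those UMIs at 12 weeks. Cells holding RNA of another type had at least 5 UMIs of the keratinocyte, the neutrophil or the B cell markers. In T cells, ILC2 and mast cells, at least 10 UMIs of H2-Aa or 5 of the C1q genes also counted. Without such cells the log2 ratio of S100a9 was -1.24, and without the cells of highest doublet score it was -3.57. S100a9 is among the markers that chose the cells left out, so the value of -1.24 says nothing on the remaining cells. MHC class II genes in macrophages had ratios above 0 for all 5 that passed, with a median of 0.52 in WT mice and -1.07 in DB mice. Cd74, the invariant chain that escorts MHC class II, stood at 5140 and 7590 CPM (0.56).

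In dendritic cells Thbs1, the matrix protein thrombospondin 1, had the largest ratio, at 18.8 CPM at 12 weeks and 135 CPM at 21 weeks (2.84, 2.65 to 3.04). In DB mice it stood at 27.6 and 35.8 CPM. Ptgs2 stood at 53.6 and 220 CPM (2.04), and 7.96% and 21.1% of the cells held a UMI of it, against 1.93% and 5.36% of T cells. Ccr7, the receptor that guides dendritic cells to lymph nodes, stood at 58.1 and 129 CPM (1.15, 1.04 to 1.27), and 21 and 88 cells held at least 10 UMIs. Il12b, a subunit of interleukins 12 and 23, was at 0.311 and 6.32 CPM, far below the minimum level. The paper lists Thbs1 as a marker of its monocyte-derived macrophages. In the dendritic cells the 5 monocyte markers summed to 653 and 531 CPM. Plac8 (60.6 and 118 CPM), Ly6c2 (21.8 and 50.5), Chil3 (5.75 and 9.91) and Vcan (11.2 and 19.0) were higher, and Ccr2 (554 and 333) was lower. The part of monocyte-derived cells in the values of dendritic cells was not tested.

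In dendritic cells Lpl stood at 662 and 99.4 CPM (log2 ratio -2.73, -2.80 to -2.67), with a UMI in 45.7% and 19.6% of cells, against 8.93% and 1.63% of T cells. Its log2 ratio was also below 0 in T cells (-2.05), ILC2 (-1.94) and mast cells (-0.83), where it did not pass the minimum levels. Cd36, a fatty acid receptor, stood at 114 and 31.3 CPM (-1.87), with log2 ratios from -1.94 to -0.84 under the alternative settings. It had a UMI in 27.4% and 13.4% of dendritic cells but in 84.5% and 72.8% of macrophages. The part of macrophage RNA in its dendritic values was not tested. Of 16 lipid handling genes 9 passed, 8 below 0, with a median of -0.44 in WT mice and 0.14 in DB mice. Mmp12, a macrophage elastase, stood at 342 and 77.1 CPM (-2.15), and at 234 and 354 CPM in DB mice. Mfge8, a bridge to dying cells, stood at 218 and 51.7 CPM (-2.07), and at 154 and 158 CPM in DB mice. AA467197 stood at 370 and 91.3 CPM (-2.02) and Anxa8, an annexin, at 165 and 45.0 CPM (-1.87). Of the named dendritic genes, Itgax, the integrin CD11c, stood at 200 and 82.4 CPM (-1.28), Cd24a, a small surface glycoprotein, at 460 and 167 CPM (-1.47), and Plet1 at 71.5 and 10.3 CPM. Neither fall was particular to dendritic cells. In the other lineages the log2 ratio was -0.91 to -1.40 for Itgax and -1.41 to -1.76 for Cd24a. Itgax passed the minimum levels in dendritic cells alone, and Cd24a also in macrophages. All 11 glycolysis and hypoxia genes that passed were below 0, none of them 2-fold, with a median of -0.36.

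T cells showed 3 genes past 2-fold upward: Il1b, Gm10260 and AW112010, a lincRNA at 82.0 and 189 CPM (1.20, 1.07 to 1.34). AW112010 stood at 88.7 and 92.4 CPM in DB mice. Cd7, a surface protein of T and NK cells, stood at 168 and 39.2 CPM (-2.10, -2.25 to -1.95), with a UMI in 25.5% and 11.6% of T cells and in 2.16% and 0.818% of macrophages. Klrd1, the NK receptor chain CD94, stood at 108 and 40.6 CPM (-1.42). The 5 NK cell markers summed to 57.5 and 21.9 CPM in T cells (-1.39), with Prf1, perforin, at 42.8 and 11.7 CPM and Klra8 at 0 in both libraries, and their part in these values was not tested. The paper lists Cd7 and Cd3e as markers of dendritic epidermal T cells, which also carry the gamma-delta T cell receptor. The T cell rule admits such cells, and their part in these values was not tested either. Spry2, a brake on growth factor signalling, stood at 130 and 28.1 CPM (-2.21), and Tcrg-C1, a gamma T cell receptor constant region, at 296 and 129 CPM (-1.20). In DB mice Cd7, Klrd1 and Spry2 were lower as well, with log2 ratios of -2.01, -1.39 and -2.08.

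Within T cells Trdc, the delta chain constant region, had a UMI in 61.5% of T cells at 12 weeks and 53.9% at 21 weeks, and Cd4, the helper coreceptor, in 12.3% and 24.5%. Thinned to 1000 UMIs the shares were 44.1% and 35.6% for Trdc and 2.78% and 7.41% for Cd4. Macrophages, as a background, held Trdc in 5.29% and 5.41%, and dendritic cells held Cd4 in 2.82% and 3.78%. Fewer cells of a type and less RNA per cell cannot be told apart in the summed values. The mast protease Mcpt2 had the lowest ratio in T cells, at 251 and 51.7 CPM (-2.28), where the 6 mast cell markers summed to 83.0 and 35.5 CPM in T cells. Its level was under 10% of that in mast cells.

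Early response genes, which cells switch on within minutes of stimulation or handling, had medians on opposite sides of 0 in different lineages. In T cells 19 of the 23 that passed were below 0, with a median of -0.44, and in ILC2 16 of 22, with a median of -0.33. In mast cells 20 of 22 were above 0, with a median of 0.70, and in macrophages 15 of 20, with a median of 0.21. Maff, a small transcription factor, stood at 126 and 50.3 CPM in T cells (-1.32) and at 133 and 57.9 CPM in ILC2 (-1.20). Klf4, a transcription factor, stood at 587 and 299 CPM in T cells (-0.97). The WT median of all genes was -0.06 in T cells and ILC2, -0.07 in mast cells and -0.11 in macrophages. In DB mice the medians of the early response genes were -0.12 in T cells, -0.07 in ILC2, 0.61 in mast cells and 0.78 in macrophages. No DB median of all genes was set beside them. Heat shock genes had medians between 0.05 and 0.32 in the 5 lineages, with Hspb1 in macrophages alone past 2-fold among those that passed.

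**Figure D4:**
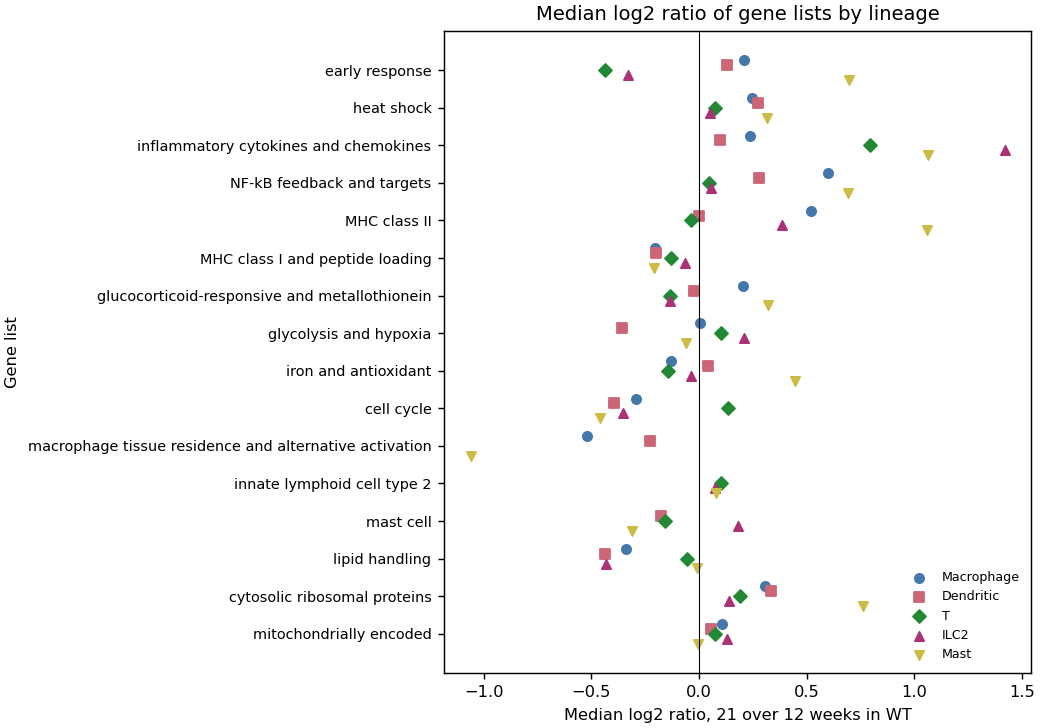
Median log2 ratio of 21 over 12 weeks in WT mice for each gene list (rows) and lineage (symbols), over members that passed the minimum levels, shown where at least 3 passed. The vertical line marks 0. Early response genes lie at -0.44 in T cells and 0.70 in mast cells, and ribosomal protein genes lie above 0 in every lineage.

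In ILC2 the chemokines Ccl3 and Ccl4, which attract monocytes and T cells, were higher, at 23.2 and 116 CPM (2.32, 1.99 to 2.68) and 35.6 and 114 CPM (1.67, 1.39 to 1.97). Without the cells of highest doublet score their log2 ratios were 0.97 and 0.94. Gzma, a granule protease of cytotoxic cells, stood at 45.9 and 123 CPM (1.42), and Ipmk, an inositol phosphate kinase, at 52.6 and 124 CPM (1.24). Of 22 listed ILC2 genes 15 passed, none past 2-fold, where 0.515% of all genes were higher and 1.16% lower. Their median was 0.08 against -0.06 for all genes, and the 7 ILC2 markers had a log2 ratio of 0.43 summed (3919 and 5293 CPM). Il5, a cytokine for eosinophils, stood at 25.6 and 60.3 CPM, and Ptgdr2, a prostaglandin D2 receptor, at 12.6 and 2.05 CPM, both below the minimum level. Ifng, interferon gamma, stood at 113 and 34.1 CPM (-1.73). Its log2 ratio ranged from -1.90 to 0.34 under the alternative settings, so its direction depends on the processing. The ILC2 rule does not exclude NK cells, whose 5 markers summed to 55.0 and 51.9 CPM in ILC2. Prf1 stood at 9.11 and 20.7 CPM, but Ncr1 at 22.0 and 14.3 CPM and Eomes at 16.2 and 11.9 CPM. The part of NK cells in the Gzma, Ccl3, Ccl4 and Ifng values was not tested.

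The basal epidermal keratins were lower in ILC2, with Krt15 at 110 and 13.8 CPM, Krt5 at 317 and 52.1 CPM and Krt14 at 342 and 62.9 CPM. The 5 keratinocyte markers summed to 838 and 202 CPM in ILC2, and 14 of 441 cells at 12 weeks held 97.4% of those UMIs, as 10 of 677 held 94.3% at 21 weeks. Without cells holding RNA of another type the log2 ratio of Krt15 turned from -2.99 to 0.31, and those of Krt5 and Krt14 moved from -2.61 to -1.69 and from -2.44 to -1.28. Krt5 and Krt14 are among the markers that chose the cells left out, so their moved values say nothing on the remaining cells. Krt15 was not among those markers, but it is a keratin of the same cell type. Its turn is thus shaped by the same choice, and no conclusion is drawn from it. Mcpt2 in ILC2 stood at 315 and 33.1 CPM (-3.25) and Apoe, a lipid carrier of macrophages, at 328 and 70.4 CPM (-2.22), both under 10% of their level in another lineage.

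Mast cells had the most genes past 2-fold and the least depth, with 901146 UMIs at 12 weeks and 566504 at 21 weeks and a median of 2096.5 and 1816.5 per cell. Tnfaip3 stood at 515 and 2055 CPM (2.00), with a UMI in 46.2% and 73.7% of cells. Atf3, a stress-induced transcription factor, stood at 96.5 and 346 CPM (1.84), and Nr4a2, a nuclear receptor of the early response, at 275 and 768 CPM (1.48). Il13, a type 2 cytokine, stood at 123 and 371 CPM (1.59), with a UMI in 20.5% and 35.1% of cells, against 1.56% and 2.96% of macrophages. Ccl7, a monocyte chemokine named after its values were seen, stood at 831 and 2837 CPM (1.77), with a UMI in 45.1% and 65.8%, against 6.15% and 5.13% of T cells. Tnfaip3, Il13, Atf3 and Nr4a2 also had DB log2 ratios above 1, at 2.04, 2.30, 1.22 and 1.27.

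The largest mast cell ratios rested on few UMIs. Cxcl1 had 3 UMIs at 12 weeks and 85 at 21 weeks (5.49, 3.90 to 7.80), and Slc7a2 9 and 59 (3.38, 2.36 to 4.58). Bmp2, a bone morphogenetic protein, had 20 and 72 UMIs (2.52, 1.79 to 3.31), and its DB log2 ratio was 2.84. Tnip3 had 13 and 64 UMIs (2.97), and Retnla, an effector of alternative activation, 80 and 228 (2.18). Without cells holding RNA of another type the log2 ratios of Tnip3 and Retnla were -0.18 and -0.30, and Slc7a2 was under 10% of its level in macrophages. The MHC class II genes Cd74 and H2-Ab1 had log2 ratios of 1.11 and 1.06 in mast cells and -0.18 and 0.26 without those cells. The cells left out were chosen in part by H2-Aa, another MHC class II gene.

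Among mast cell genes, 15 of the 21 that passed were below 0, with a median of -0.31. Mrgprb2, the receptor through which peptides and drugs degranulate connective tissue mast cells, stood at 579 and 245 CPM (-1.24), with a UMI in 63.6% and 36.4% of cells, against 1.81% and 0.175% of T cells. Thinned to 1000 UMIs, which left out 49 and 35 mast cells, the shares were 41.1% and 24.4% for Mrgprb2, 33.7% and 67.9% for Tnfaip3, 11.1% and 24.4% for Il13, and 33.7% and 58.5% for Ccl7. Cyp11a1, a steroid-synthesis enzyme, stood at 1692 and 916 CPM (-0.89), and Csf2rb, the shared receptor chain for interleukins 3 and 5, at 211 and 436 CPM (1.05). F13a1, a coagulation factor of macrophages, stood at 174 CPM (157 UMIs) at 12 weeks with 17 UMIs at 21 weeks (-2.54), and Maf at 254 and 74.1 CPM (-1.78). The 6 macrophage markers summed to 1729 and 1008 CPM in mast cells, and without the cells of highest doublet score the log2 ratios of F13a1 and Maf were -0.06 and -0.59. Epb41l1, Krt4 and Pilrb2 completed the 5 lowest, with log2 ratios of -1.78, -1.72 and -1.54.

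**Figure D5:**
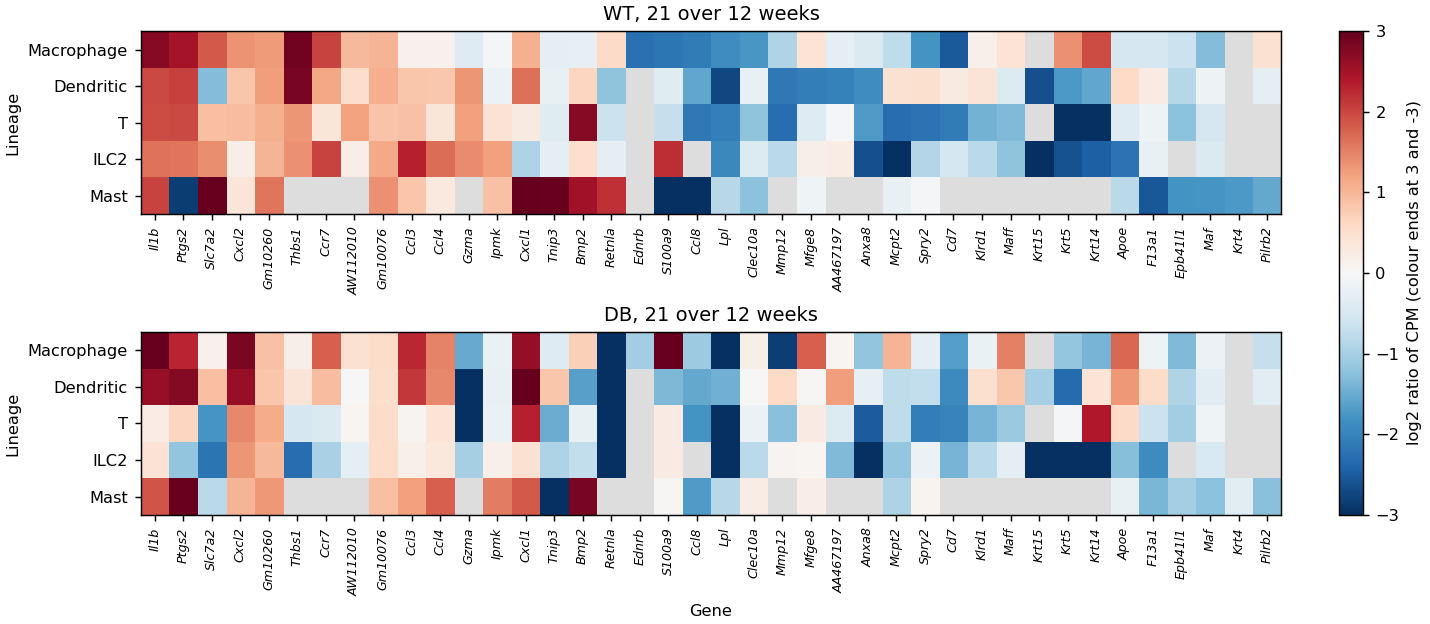
Log2 ratio of CPM at 21 over 12 weeks in WT (top) and DB (bottom) mice for the 5 genes with the largest ratios each way in each lineage (columns), by lineage (rows). Red is higher and blue lower at 21 weeks, colours end at 3 and -3, and grey marks fewer than 50 UMIs over the WT libraries or no finite ratio. Il1b is 2.73 in WT macrophages and 3.23 in DB macrophages, and Lpl in dendritic cells is -2.73 in WT and -1.43 in DB.

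The genes past 2-fold in WT mice were set beside their DB values. Over all genes counted in WT macrophages, 2.79% were at least 2-fold higher and 3.37% lower in DB mice. In macrophages 8 of the 13 higher genes were also at least 2-fold higher in DB mice and 1 was below 0, and 8 of the 16 lower genes were also lower and 4 above 0. In dendritic cells 3 of the 7 higher genes were also higher (2.81% of all genes), and 5 of the 19 lower genes were also lower and 4 above 0 (2.34%). In T cells 1 of the 3 higher genes was also higher (0.884%), and 11 of the 20 lower genes were also lower and 2 above 0 (6.06%). In ILC2 0 of the 8 higher genes were also higher and 2 were below 0 (0.772%), and 11 of the 18 lower genes were also lower and 1 above 0 (4.63%). In mast cells 23 of the 41 higher genes measured in DB mice were also higher and 4 below 0 (4.02%), and 12 of the 71 lower genes were also lower and 8 above 0 (5.12%). Across genes the WT and DB log2 ratios had a Pearson correlation of 0.50 to 0.56 in the 5 lineages, given as a description, since genes are not independent and the file headers name the same difference in software for both. Among the same genes more passed 2-fold in DB mice, 106 against 29 in macrophages, 77 against 26 in dendritic cells, 110 against 23 in T cells and 84 against 26 in ILC2.

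Of 24 interferon-stimulated genes no more than 2 passed in any lineage. MHC class I genes had medians of -0.21 to -0.07 over the 5 lineages. The p53 and senescence list had 1 or 2 members past the minimum levels in each lineage, and Cdkn1a, a cell cycle inhibitor, stood at 245 and 308 CPM in macrophages (0.33), 369 and 244 CPM in T cells (-0.60) and 456 and 782 CPM in mast cells (0.78). Cell cycle genes had a median of 0.13 in T cells and -0.46 to -0.29 in the other lineages. Glucocorticoid-responsive and metallothionein genes had medians of -0.14 to 0.32, with Klf9 in mast cells past 2-fold, and iron and antioxidant genes of -0.14 to 0.45.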

How the data were processed

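Leukocytes of 4 libraries were measured by 10x droplet RNA-seq, and the 12-week-WT and 21-week-WT libraries were compared. Per the labels, reads were mapped to mm10 with Cell Ranger. The deposited values are unnormalized UMI counts. File headers name version 5.0.0 (12 weeks) and 6.0.0 (21 weeks), the labels 5.0.0 for all, and the study's methods 6.0. Cells needed 200 detected genes and no more than 10% mitochondrial UMIs. Counts were summed per lineage and scaled to the lineage's UMIs (CPM). Log2 ratios carry exact conditional binomial intervals, shares Clopper-Pearson intervals and levels Poisson intervals, all at 95%. With 1 library per age no test was made. Medians of gene lists in DB mice are given without a DB median of all genes, so a shift of all genes is not set apart. Gene numbers, levels and ratios under 12 alternative settings are in the closing section. The calculation was tested on simulated counts. The lineages, gene lists and rules were chosen with earlier results of these data known. Genes named are the 5 largest ratios each way per lineage, those past 2-fold in at least 4 lineages, and up to 4 members of each of 18 lists, with exceptions marked. Cells in 2 lineages counted in both (97 and 175 cells). Doublets were not removed in the main values. Scrublet scores (scanpy 1.11.5) served as an alternative at a rate of 0.8% per 1000 barcodes, because its own threshold marked 55 and 0 cells. TMM factors came from edgeR 4.0.16 in R 4.3.3, and transcripts were aligned with blastn 2.17.0. Promoter sequences are from RefSeq on GRCm38.p6. Of 11 macrophage genes looked up, picked after their values were seen, 10 had an entry (not Slc7a2), and 2 motifs were searched.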

Additional observations from a re-analysis of the deposited data

Results flagged for a closer look

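The following went opposite ways with age in WT and DB mice. Each condition was 1 library, so the difference between genotypes was not tested. In macrophages S100a9 had a log2 ratio of -2.16 in WT mice (102 and 22.9 CPM) and 3.0 in DB mice (6.44 and 51.6 CPM). The 5 neutrophil markers summed to 229 and 74.4 CPM in WT macrophages and 73.0 and 234 CPM in DB macrophages, where 113 of 1436 cells held 63.1% of those UMIs at 21 weeks. Their part in the S100a9 values was not tested. In dendritic cells AA467197 had -2.02 in WT mice (370 and 91.3 CPM) and 1.26 in DB mice (152 and 364 CPM). The share of dendritic cells was higher by 4.83 percentage points at 21 weeks in WT mice and differed by -9.93 points in DB mice (14.0% and 4.08%). The share of mast cells differed by -3.43 points in WT mice and by 9.54 points in DB mice (4.56% and 14.1%). The median of the MHC class II genes in macrophages was 0.52 in WT mice and -1.07 in DB mice.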

How the results depend on the processing

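No paired analysis was possible because each group has 1 library, and for the same reason no library could be left out. Over 12 alternatives, 684 values were taken for the 57 pairs of gene and lineage named for their size or sharing. Of these values 488 were within the counting interval, 189 moved in the same direction and 7 reversed. The reversals were Retnla in mast cells at -0.63 with stricter gates, -0.47 without cells in 2 gates and -0.30 without cells holding RNA of another type, an alternative chosen after seeing the data. Il1b in mast cells reversed to -0.76 without cells in 2 gates and -0.10 with doublets removed, and Krt15 in ILC2 and Tnip3 in mast cells to 0.31 and -0.18 without cells holding RNA of another type. For Krt15 the cells left out were chosen in part by other keratins. Genes named from the lists alone were not in this count, and some of them reversed as well. Ifng in ILC2 ranged from -1.90 to 0.34, and Cd74 in mast cells was -0.18 without cells holding RNA of another type. Of 144 counts of genes, 114 stayed within 1.5 times. A similar count need not hold the same genes. With stricter gates 14 of the 26 genes past 2-fold in dendritic cells remained so, as did 14 of the 26 in ILC2. With TMM scaling 10 of 23 remained in T cells and 79 of 117 in mast cells. With each cell weighted the same 74 of the 117 in mast cells remained. With at least 500 genes per cell 94.9% remained in mast cells and 100% in the other lineages.

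With TMM scaling, 8 genes were lower in macrophages, 15 higher in dendritic cells, 5 higher and 7 lower in T cells, and 83 higher and 34 lower in mast cells. With each cell weighted the same, 4 were higher in ILC2 and 0 in at least 4 lineages. With at least 200 UMIs, 27 were higher and 31 lower in mast cells. Without a minimum CPM, 150 and 371 were higher and lower in macrophages, 118 and 471 in dendritic cells, 101 and 445 in T cells, 69 and 319 in ILC2, 69 and 241 in mast cells, and 6 and 12 in at least 4 lineages. At a limit of 5% mitochondrial UMIs 14 were higher in ILC2, and stricter gates gave 5 higher and 36 lower in T cells. In ILC2 5 were higher without cells in 2 gates, with doublets removed or without cells holding RNA of another type. In at least 4 lineages 1 was higher without cells in 2 gates (Gm10076) and 1 with doublets removed (Gm10260). Il1b was higher in 2 lineages with each cell weighted the same, without cells in 2 gates or without cells holding RNA of another type.

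Shares, at 12 and 21 weeks, were 33.3% and 22.8% for macrophages, 20.7% and 27.9% for dendritic cells, and 5.97% and 5.48% for ILC2 at 5% mitochondrial UMIs, with mast cells at 3.74% at 21 weeks. Stricter gates gave 29.1% and 19.7% for macrophages, 6.28% and 12.4% for dendritic cells, 6.43% and 11.3% for T cells, and 3.32% and 4.62% for ILC2. Without cells in 2 gates, dendritic cells were 17.4% and 21.4% and T cells 14.5% and 21.9%. Without cells holding RNA of another type, macrophages were 28.3% at 12 weeks, dendritic cells 17.1% and 22.2%, T cells 14.1% and 21.4%, and ILC2 7.63% and 8.58%. The causes were not tested. Mast cells, with the fewest UMIs, have the widest intervals.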
